A study of Mus musculus with 9 samples.

Results

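The set described here holds genes of the tricarboxylic acid (TCA) cycle and of fatty acid oxidation in the mitochondrion, with the pyruvate dehydrogenase complex that feeds the cycle, the carriers for citrate and acylcarnitine, and the cytosolic counterparts of some cycle enzymes. Members were listed by symbol and were kept where they reached at least 1 TPM in at least 3 libraries. TPM is a length-normalised share of all transcripts in a library, so levels can be set side by side between genes. This kept 33 of 35 listed members among 11133 genes kept in the whole table. The remaining 2 were listed at 0 TPM in all 9 libraries: Pcx, which encodes pyruvate carboxylase, and Idh3a, which encodes the catalytic subunit of the NAD-dependent isocitrate dehydrogenase. Cells use both genes widely and partner subunits of Idh3a were abundant, so these entries are reported only as listed at 0.

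Polyadenylated RNA came from bone marrow-derived macrophages of 3 genotypes, with 3 libraries each. One genotype was wild type, one carried a knockout of Ndufa4l3-miR147 (also called Nmes1), and one a knockout of Ndufa4, which encodes a protein of mitochondrial complex IV. All cells had been differentiated from mouse marrow for 7 days with 30% L929 supernatant and then given interferon-gamma at 40 ng/ml for 12 h, so no unstimulated state was measured. The sources used here do not give the age, sex or strain of the mice, or how many mice stand behind each genotype. The labels call the replicates technical, and p-values therefore measure only the spread between libraries. The targeted gene Ndufa4l3, listed as AA467197, stood at 355 to 365 TPM in wild type, 2.21 to 4.50 TPM in the Ndufa4l3-miR147 knockout and 472 to 527 TPM in the Ndufa4 knockout. Ndufa4 was listed at 0 to 0.621 TPM in every library, wild type included, and so could not check its own knockout.

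The TCA cycle oxidises acetyl-CoA to carbon dioxide and passes the electrons to NADH and to the respiratory chain. Fatty acid beta-oxidation supplies acetyl-CoA by shortening acyl-CoA in repeated rounds of dehydrogenation, hydration, a further dehydrogenation and thiolysis, after carnitine has carried long acyl chains into the mitochondrion. Macrophages activated by interferon-gamma and microbial products are known for a rewired cycle, in which citrate and its derivatives leave the mitochondrion for lipid synthesis and for the antimicrobial metabolite itaconate.

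The labelled cell type was checked against marker lists. All 10 macrophage markers were kept, with a summed level of 9788 to 9905 TPM in wild type, 9397 to 9575 TPM in the Ndufa4l3-miR147 knockout and 10333 to 10813 TPM in the Ndufa4 knockout. Lyz2 made up much of that sum: without it the other 9 summed to 5245 to 5293 TPM in wild-type libraries, within the 5052 to 5468 TPM of Ndufa4 knockout libraries. In the Ndufa4 knockout against wild type Lyz2 was called higher by limma, Cd14 and Mertk were called lower (-0.84 and -0.51), and the other 7 were not called. All 8 lymphocyte and NK cell markers stayed under the filter, with sums of 0.513 to 1.16 TPM. The 7 markers of conventional dendritic cells summed to 28.0 to 30.1 TPM in wild type, 31.4 to 35.5 TPM in the Ndufa4l3-miR147 knockout and 41.8 to 76.8 TPM in the Ndufa4 knockout, mostly from Clec9a, with Flt3 and Zbtb46 under the filter. Sums over 8 neutrophil markers ran from 1.47 to 73.0 TPM, over 7 fibroblast and stromal markers from 6.97 to 131 TPM, and over 9 erythroid, megakaryocyte, basophil and mast cell markers from 82.1 to 239.5 TPM. The depth behind each value is unknown, since TPM hold no read number. Replicate 3 of the Ndufa4 knockout stood apart from the other 8 libraries. Its upper quartile was 7.79 TPM against 9.24 to 9.84 TPM, it lay at 40.4 on the first principal component against -11.4 to 4.56, and its deviations from the mean of its genotype correlated with transcript length at a rank correlation of -0.407 over 10673 genes. Replicates 1 and 2 of that genotype were at 0.283 and 0.298, being measured from a mean that includes replicate 3, and the other 6 libraries lay between -0.074 and 0.106. Whether these differences between libraries have a part in the results below was not tested. Fewer cells of a type and less RNA per cell cannot be told apart in such bulk samples.

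As a whole the set was expressed well above the typical gene and took a near constant share of each library. Its members had a median level of 62.5 TPM over the 9 libraries against 18.7 TPM for all genes kept, and 30 of 33 stood above that gene median. Together they made up 0.216% to 0.224% of a library. The summed level was 2232 ± 15.6 TPM (SD, n = 3) in wild type, 2187 ± 35.8 TPM in the Ndufa4l3-miR147 knockout and 2188 ± 23.1 TPM in the Ndufa4 knockout. Malate dehydrogenase 2 (Mdh2, mean 199.6 TPM) and citrate synthase (Cs, 171 TPM) were the most abundant, 6 members were above 100 TPM and 24 lay between 20 and 100 TPM. Only Cpt2 (11.9 TPM), Suclg2 (7.73 TPM) and Mdh1 (4.88 TPM) were lower. Replicates lay close together in wild type and in the Ndufa4l3-miR147 knockout, with median coefficients of variation of 2.71% and 2.91% over the members, and farther apart in the Ndufa4 knockout, at 7.03%.

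**Figure D1:**
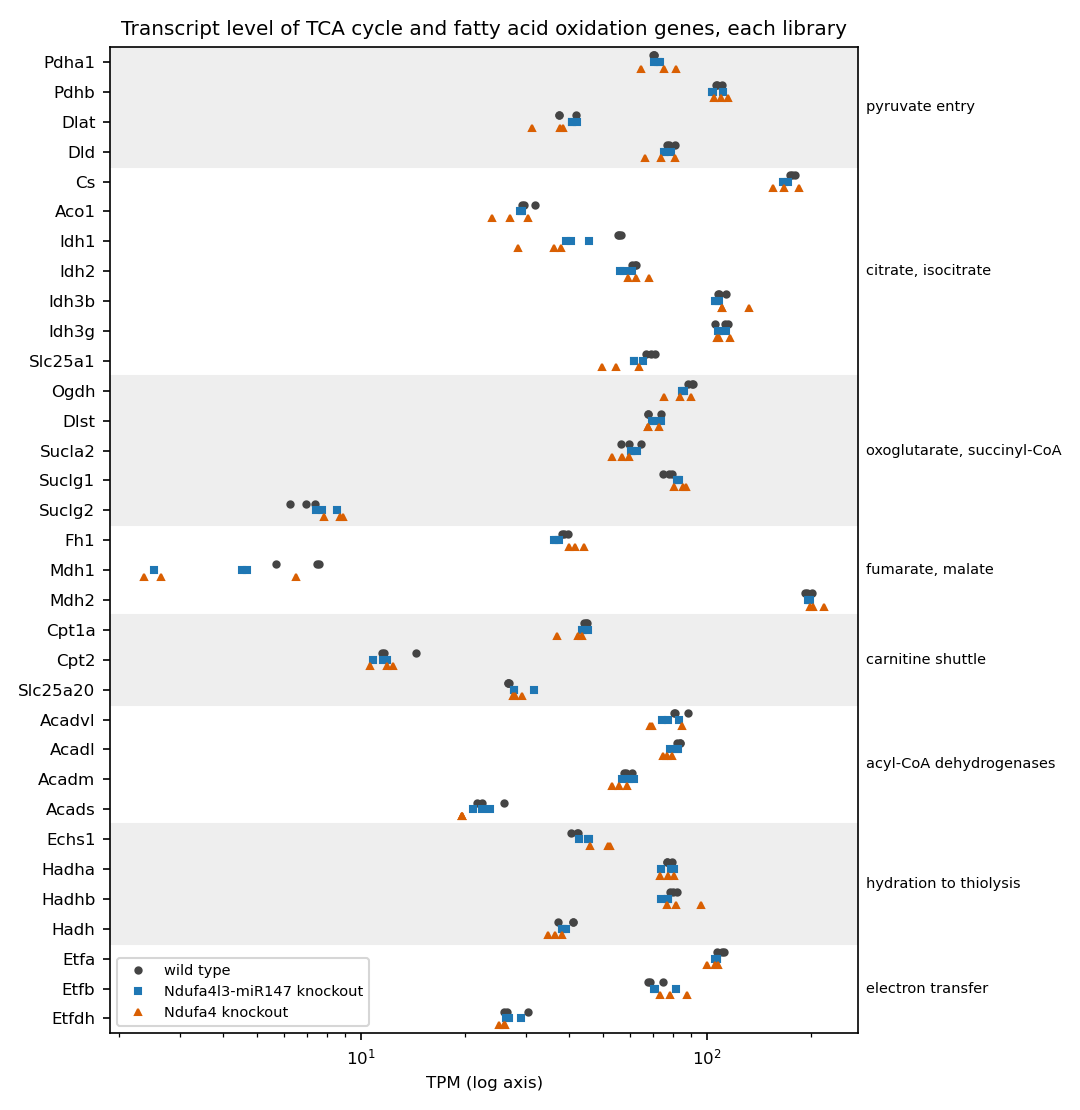
Level of each of the 33 members kept in each of the 9 libraries, in TPM on a log axis, ordered by role from pyruvate entry to electron transfer. Points are single libraries, with the 3 genotypes by colour and shape. Most members form 1 tight cluster, while Idh1 separates the 3 genotypes and Mdh1 is low and scattered.

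Few members differed between genotypes. Differences are given as the change in log2(TPM + 1) ± SE from 1 limma fit to all 9 libraries, and a call needed an adjusted p under 0.05, by Benjamini-Hochberg across the 11133 genes fitted. The 3 genotypes shared 1 spread per gene in this fit. Each SE against wild type thus also holds the spread of the genotype not compared, and members spread most in the Ndufa4 knockout. Fits to only the 6 libraries compared called 2.75% of all genes in the Ndufa4l3-miR147 knockout and 2.14% in the Ndufa4 knockout. Idh1 was the 1 member called in each. In the fit to all 9 libraries, 0 of 33 members were called by limma in the Ndufa4l3-miR147 knockout against wild type, where 0.431% of all genes were, and 2 members had an unadjusted p under 0.05. Their median difference was -0.03 against 0.00 over all genes, and the range ran from -0.71 to 0.18. The libraries of the 2 genotypes did not overlap for 14 members (5 higher, 9 lower in the knockout), or 42.4% of them, where 23.9% of all genes did not overlap. In the Ndufa4 knockout against wild type Idh1 fell and Echs1 rose, so 2 of 33 members, or 6.06%, were called by limma where 8.59% of all genes were (2.83% higher, 5.76% lower). There 8 members had an unadjusted p under 0.05, and 10 members (5 higher, 5 lower) did not overlap, or 30.3% where 31.1% of all genes did not overlap (9.4% higher, 21.7% lower). The median over the members was -0.07 against -0.08 over all genes. Both comparisons share the 3 wild-type libraries.

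Between the knockouts 0 of 33 members were called by limma, where 3.24% of all genes were, and 5 had an unadjusted p under 0.05. The libraries did not overlap for 9 members, or 27.3%, where 25.3% of all genes did not. Of these, 5 were higher in the Ndufa4l3-miR147 knockout and 4 lower, and over all genes 18.3% and 6.98% were. The median over members was 0.03 against 0.07 over all genes. The intervals were narrow for most members: in each of the 3 comparisons, 31 of 33 had a 95% interval of the difference that lay within 0.5 of 0. Without Ndufa4 knockout replicate 3, the members called by limma were Idh1 in the Ndufa4l3-miR147 knockout against wild type, Idh1, Slc25a1 and Echs1 in the Ndufa4 knockout against wild type, and Slc25a1 between the knockouts. Of all genes, 1.78%, 14.25% and 6.65% were called in these comparisons without that library. Leaving out that library also moved the difference of 18 of 33 members by over 1.5 times or across 0 in the Ndufa4 knockout against wild type, and of 25 of 33 between the knockouts, by at most 0.15 on the log2 scale. Such values are given below for some of these members. Without Ndufa4 knockout replicate 2, the 3 members called in the Ndufa4 knockout against wild type were Idh1, Echs1 and Mdh1, where 9.71% of all genes were called. Calls over all genes in the Ndufa4 knockout split into 315 higher and 641 lower, and into 493 higher and 452 lower after median-of-ratios scaling.

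**Figure D2:**
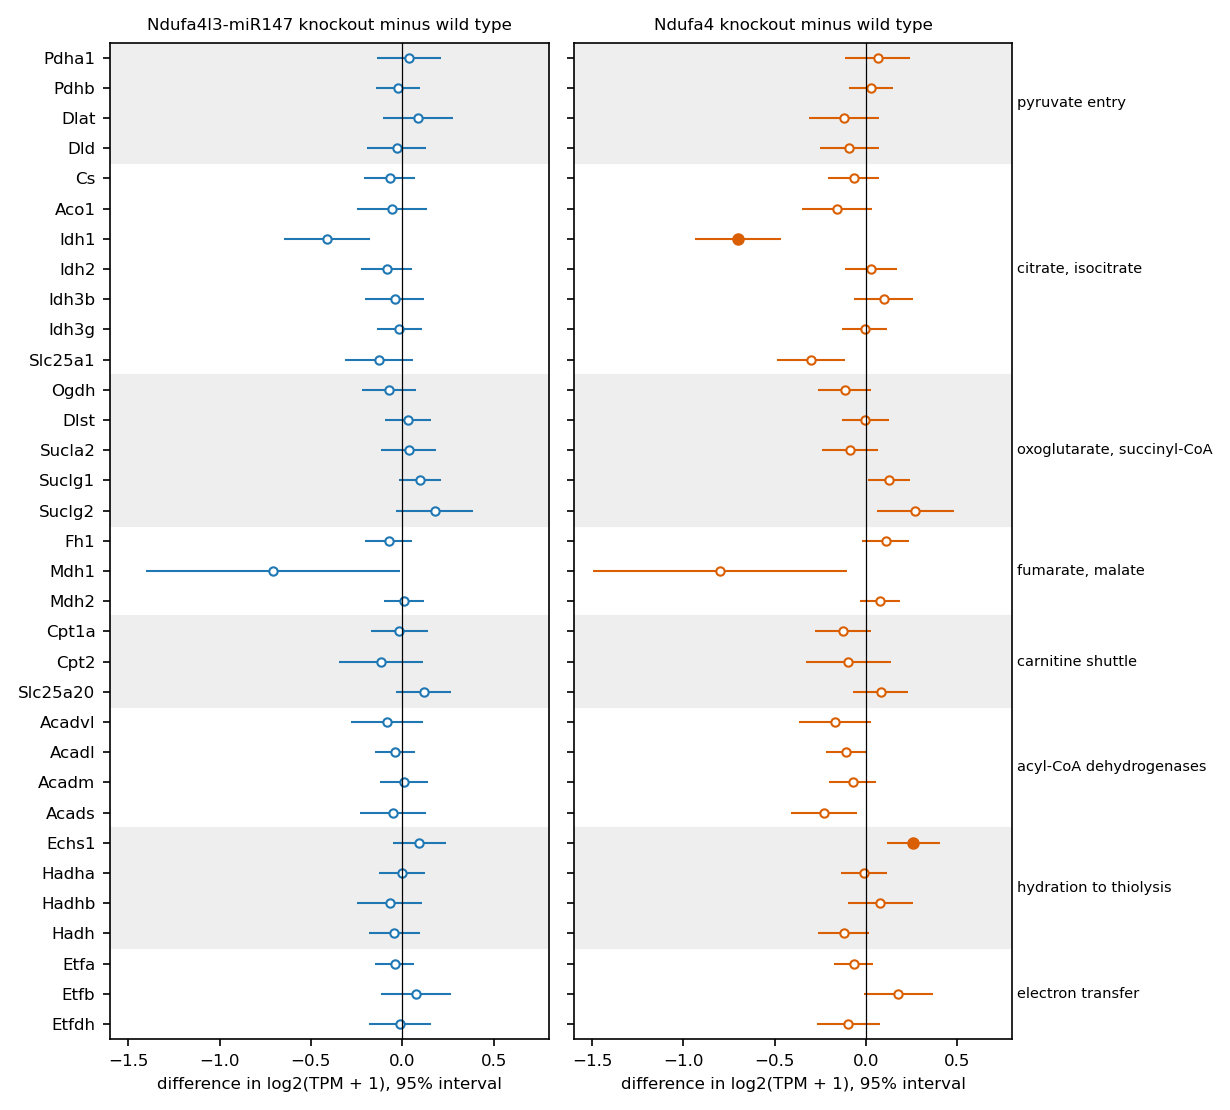
Difference of each knockout from wild type in log2(TPM + 1) for the 33 members, with 95% intervals from the limma fit to 9 libraries. Filled points passed an adjusted p of 0.05 and open points did not. Only Idh1 (-0.70) and Echs1 (0.26) are filled, both in the Ndufa4 knockout, and most other points lie near 0 with Mdh1 the widest interval.

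The pyruvate dehydrogenase complex, which turns pyruvate into acetyl-CoA, showed no called member among its 4 kept. Its most abundant transcript was Pdhb, the beta subunit of the decarboxylating enzyme: Pdhb stood at 110.2, 106 and 107 TPM in wild-type libraries, 111, 104 and 103 TPM in Ndufa4l3-miR147 knockout libraries, and 115, 105 and 109.7 TPM in Ndufa4 knockout libraries. These libraries overlapped in every pair of genotypes, with differences from wild type of -0.02 ± 0.05 in the Ndufa4l3-miR147 knockout and 0.03 ± 0.05 in the Ndufa4 knockout. Dlat, the acetyltransferase core of the complex, was at 37.4, 41.8 and 37.4 TPM in wild-type libraries, 40.6, 42.2 and 40.9 TPM in Ndufa4l3-miR147 knockout libraries, and 38.3, 37.5 and 31.3 TPM in Ndufa4 knockout libraries. The lowest value was that of the library that stood apart, and the knockouts did not overlap: Dlat was higher in the Ndufa4l3-miR147 knockout than in the Ndufa4 knockout by 0.21 ± 0.08 (95% interval 0.02 to 0.40, limma adjusted p = 0.215), which did not pass. Without that library the difference was 0.12 ± 0.06 (limma adjusted p = 0.276). The ratio of Pdhb to its partner subunit Pdha1 lay between 1.40 and 1.70 in all libraries.

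At the citrate and isocitrate steps the main difference of the set was found, in cytosolic isocitrate dehydrogenase. Idh1 makes NADPH and 2-oxoglutarate from isocitrate in the cytosol and peroxisome, while its mitochondrial paralog is Idh2. Idh1 (ENSMUSG00000025950.16, chr1:65158616-65186500, minus strand, GRCm38) stood at 55.7, 55.4 and 56.3 TPM in wild-type libraries, 45.5, 39.1 and 40.6 TPM in Ndufa4l3-miR147 knockout libraries, and 36.2, 37.8 and 28.4 TPM in Ndufa4 knockout libraries. All 3 genotypes were separate, with wild type highest, the Ndufa4l3-miR147 knockout between and the Ndufa4 knockout lowest. Means were 55.8 ± 0.456 TPM (SD, n = 3), 41.7 ± 3.31 TPM and 34.2 ± 5.06 TPM. Against wild type Idh1 fell by 0.70 ± 0.10 in the Ndufa4 knockout (95% interval -0.94 to -0.47, limma adjusted p = 0.0062). This call was kept in all 20 alternative settings, with differences from -0.78 to -0.56 and limma adjusted p from 0.000164 to 0.0354, and without Ndufa4 knockout replicate 3 the difference was -0.58 ± 0.06. For the Ndufa4l3-miR147 knockout the difference was -0.41 ± 0.10 (95% interval -0.65 to -0.18, limma adjusted p = 0.203), which did not pass. It passed in 3 of 20 alternative settings, among them without Ndufa4 knockout replicate 3 (limma adjusted p = 0.0143), and the limma adjusted p ranged from 0.0029 to 0.694 over the alternatives. Between the knockouts the difference was 0.29 ± 0.10 (limma adjusted p = 0.174), and without Ndufa4 knockout replicate 3 it was 0.17 ± 0.06 (limma adjusted p = 0.176), so that the 2 knockouts were not shown to differ.

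Idh2 was at 61.8, 62.4 and 60.8 TPM in wild-type libraries, 60.6, 55.9 and 57.7 TPM in Ndufa4l3-miR147 knockout libraries, and 58.9, 62.2 and 67.8 TPM in Ndufa4 knockout libraries. It overlapped between wild type and the Ndufa4 knockout and was slightly lower without overlap in the Ndufa4l3-miR147 knockout, with differences of -0.09 ± 0.06 and 0.03 ± 0.06 from wild type (limma adjusted p = 0.874 and 0.806). The ratio of Idh1 to Idh2 is taken within a library and so does not depend on its scaling. It was 0.901, 0.887 and 0.925 in wild type, 0.750, 0.700 and 0.703 in the Ndufa4l3-miR147 knockout, and 0.615, 0.608 and 0.419 in the Ndufa4 knockout. The 3 genotypes did not overlap in it, and the lowest ratio was that of Ndufa4 knockout replicate 3. With 3 libraries against 3 an exact permutation test of such a ratio cannot go below p = 0.1 (two-sided), so none is given.

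The region between Idh1 and its neighbour is shown because Idh1 carried the clearest change of the set. Idh1 shares it with Pikfyve, a lipid kinase gene that is transcribed in the opposite direction. The stretch without annotated exons, chr1:65186501-65186682 on the minus strand (GRCm38.p6), is 182 bases long and reads 5′ to 3′ on the Idh1 strand:
Idh1: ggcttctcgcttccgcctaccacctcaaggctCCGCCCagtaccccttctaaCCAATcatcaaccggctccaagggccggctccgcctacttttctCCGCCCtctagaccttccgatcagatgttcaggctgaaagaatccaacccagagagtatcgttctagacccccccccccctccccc
Capitals mark a CCAAT box (CCAAT) and GC boxes (GGGCGG, here as CCGCCC), searched on both strands. Pikfyve, named after its values were seen, was at 16.3, 16.1 and 18.9 TPM in wild-type libraries, 19.4, 16.9 and 18.2 TPM in Ndufa4l3-miR147 knockout libraries, and 14.8, 15.8 and 6.49 TPM in Ndufa4 knockout libraries. Its differences from wild type were 0.08 ± 0.26 in the Ndufa4l3-miR147 knockout and -0.52 ± 0.26 in the Ndufa4 knockout, and neither was called by limma (adjusted p of 0.245 and above). The lowest Pikfyve value, 6.49 TPM, was that of the library that stood apart, and without it the difference in the Ndufa4 knockout was -0.15 ± 0.09 (limma adjusted p = 0.294).

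Citrate leaves the mitochondrion through the carrier encoded by Slc25a1. Slc25a1 was at 70.6, 66.8 and 68.9 TPM in wild-type libraries, 65.2, 61.7 and 61.7 TPM in Ndufa4l3-miR147 knockout libraries, and 49.8, 54.6 and 63.5 TPM in Ndufa4 knockout libraries. Wild type did not overlap with either knockout, and the Ndufa4 knockout was spread widely, with replicate 3 the highest of its libraries. The difference in the Ndufa4 knockout was -0.30 ± 0.08 (95% interval -0.49 to -0.11, limma adjusted p = 0.057), just outside the threshold. It passed in 3 of 20 alternative settings, including without Ndufa4 knockout replicate 3, where the difference was -0.39 ± 0.05 (limma adjusted p = 0.0033). In the Ndufa4l3-miR147 knockout it was -0.13 ± 0.08 (limma adjusted p = 0.834).

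Citrate synthase, which condenses acetyl-CoA with oxaloacetate, was the most abundant member at these steps. Cs was at 179.6, 174 and 176 TPM in wild-type libraries, 172, 167 and 165 TPM in Ndufa4l3-miR147 knockout libraries, and 184, 167 and 155 TPM in Ndufa4 knockout libraries. The Ndufa4l3-miR147 knockout lay below wild type without overlap (difference -0.07 ± 0.06, limma adjusted p = 0.951), and the Ndufa4 knockout overlapped with both (-0.07 ± 0.06, and -0.0083 ± 0.046 without replicate 3). All 7 members kept at these steps had a difference below 0 in the Ndufa4l3-miR147 knockout, with a median of -0.07 and Idh3g nearest to 0 (-0.02 ± 0.05). All 7 stayed below 0 after median-of-ratios scaling, quantile normalisation and removal of a length trend, with medians of -0.069, -0.063 and -0.064. These scalings changed little in this comparison: the median over all genes was 0.0012, and 0.0011, -0.00095 and 0.00095 under them in turn. None of the 7 was called by limma in that knockout (1 had an unadjusted p under 0.05), and 5 lay below wild type without overlap, where 12.0% of all genes did. In the Ndufa4 knockout 5 of 7 were below 0, but 3 after median-of-ratios scaling or removal of the length trend and 4 after quantile normalisation. The summed level of the 7 was 607 to 618 TPM in wild type, 567 to 594 TPM in the Ndufa4l3-miR147 knockout and 572 to 588 TPM in the Ndufa4 knockout, so wild type did not overlap with either. Without Idh1 the other 6 summed to 552 to 562 TPM in wild type, 527 to 548 TPM in the Ndufa4l3-miR147 knockout and 534 to 559 TPM in the Ndufa4 knockout, which then overlapped with wild type.

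**Figure D3:**
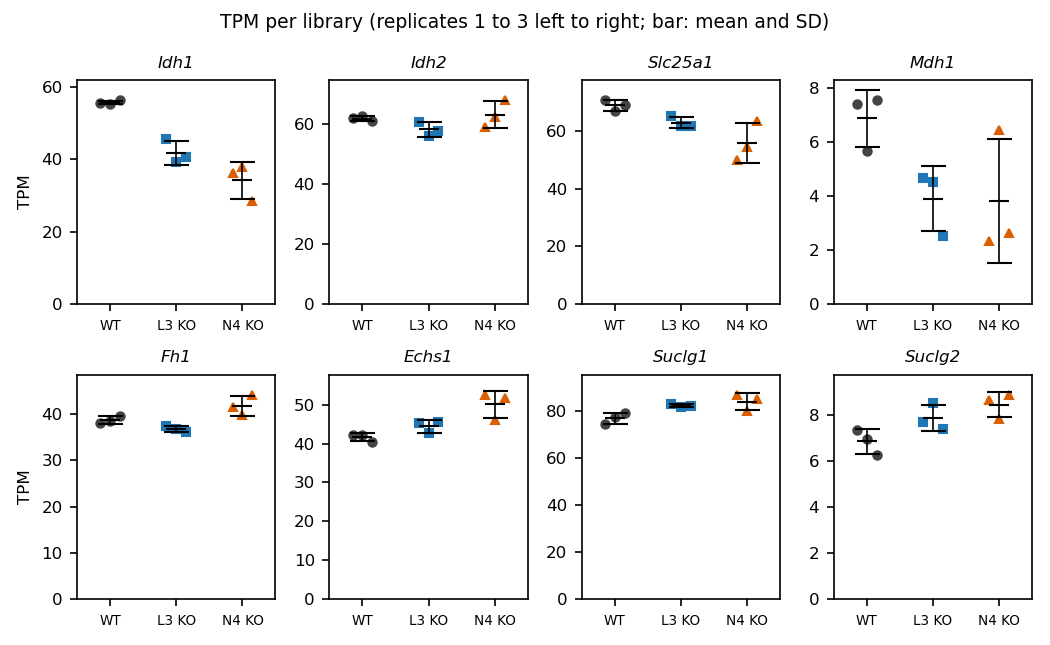
TPM in each library for 8 members, each panel with an axis that starts at 0; points are replicates 1 to 3 from left to right, and bars give the mean and SD (n = 3). WT is wild type, L3 KO the Ndufa4l3-miR147 knockout and N4 KO the Ndufa4 knockout. Idh1 steps down from 55.8 to 41.7 to 34.2 TPM, Idh2 lies between 55.9 and 67.8 TPM, and Echs1 is highest in the Ndufa4 knockout.

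At the oxoglutarate and succinyl-CoA steps 0 of 5 members were called in either knockout against wild type. Ogdh, the dehydrogenase subunit of the 2-oxoglutarate complex, was at 90.6, 91.0 and 88.1 TPM in wild-type libraries, 85.1, 86.0 and 84.8 TPM in Ndufa4l3-miR147 knockout libraries, and 83.4, 90.2 and 75.3 TPM in Ndufa4 knockout libraries. It was lower than wild type without overlap in the Ndufa4l3-miR147 knockout (-0.07 ± 0.06, limma adjusted p = 0.941) and overlapped in the Ndufa4 knockout (-0.12 ± 0.06, and -0.05 ± 0.04 without replicate 3). Succinyl-CoA ligase pairs the alpha subunit Suclg1 with either of 2 beta subunits, the ATP-forming Sucla2 or the GTP-forming Suclg2. Suclg1 was at 74.4, 77.5 and 79.1 TPM in wild-type libraries, 83.2, 81.7 and 82.4 TPM in Ndufa4l3-miR147 knockout libraries, and 86.9, 80.1 and 85.3 TPM in Ndufa4 knockout libraries. Every library of both knockouts lay above every wild-type library, by 0.10 ± 0.05 and 0.13 ± 0.05 (limma adjusted p = 0.689 and 0.156), and neither passed. The beta subunit Suclg2 was at 7.36, 6.95 and 6.26 TPM in wild-type libraries, 7.70, 8.51 and 7.41 TPM in Ndufa4l3-miR147 knockout libraries, and 8.68, 7.84 and 8.87 TPM in Ndufa4 knockout libraries. It too lay above wild type without overlap in both knockouts, by 0.18 ± 0.09 and 0.27 ± 0.09 (limma adjusted p = 0.709 and 0.113), the largest positive difference among the members in each of these comparisons. The upward difference of both genes was found under each of the 3 other scalings as well, none of them called by limma (adjusted p of 0.0622 to 0.797). Sucla2 exceeded Suclg2 by 5.98 to 10.3 times in every library.

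At the fumarate and malate steps, Fh1 encodes fumarase, which hydrates fumarate to malate. Fh1 was at 38.1, 38.5 and 39.6 TPM in wild-type libraries, 37.4, 36.7 and 36.1 TPM in Ndufa4l3-miR147 knockout libraries, and 41.6, 39.8 and 44.1 TPM in Ndufa4 knockout libraries. The 3 genotypes did not overlap, and the order differed from that of Idh1: the Ndufa4l3-miR147 knockout was lowest and the Ndufa4 knockout highest. Neither difference from wild type passed: -0.07 ± 0.06 in the Ndufa4l3-miR147 knockout and 0.11 ± 0.06 in the Ndufa4 knockout (limma adjusted p = 0.892 and 0.268). Without Ndufa4 knockout replicate 3 the second was 0.07 ± 0.05 (limma adjusted p = 0.353). The knockouts differed by -0.18 ± 0.06 (95% interval -0.31 to -0.05, limma adjusted p = 0.129), which did not pass and was the most negative difference among the members in that comparison. Mdh2, the mitochondrial malate dehydrogenase, was at 201, 192 and 194 TPM in wild-type libraries, 198, 196 and 197 TPM in Ndufa4l3-miR147 knockout libraries, and 199, 202 and 218 TPM in Ndufa4 knockout libraries. Its differences from wild type were 0.01 ± 0.05 and 0.08 ± 0.05, neither called by limma (adjusted p of 0.349 and above), and the library highest in it was again Ndufa4 knockout replicate 3, without which the second was 0.03 ± 0.03.

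Mdh1, the cytosolic malate dehydrogenase of the malate-aspartate shuttle, was the lowest member kept and the most scattered. Mdh1 was at 7.44, 5.68 and 7.56 TPM in wild-type libraries, 4.69, 4.52 and 2.52 TPM in Ndufa4l3-miR147 knockout libraries, and 2.36, 6.47 and 2.64 TPM in Ndufa4 knockout libraries. The Ndufa4l3-miR147 knockout lay below wild type without overlap, while in the Ndufa4 knockout 1 library lay within the wild-type range and 2 below it. The differences from wild type, -0.71 ± 0.31 and -0.80 ± 0.31, were the most negative among the members but did not pass (limma adjusted p = 0.60 and 0.142). Without Ndufa4 knockout replicate 2 the second was -1.16 ± 0.22 and was called (limma adjusted p = 0.0216), the 1 alternative setting of 20 in which it was. With limma's array weights, which give that replicate 89.2% of the weight of its genotype, it was -0.16 ± 0.23 (limma adjusted p = 0.645), and the other 18 settings lay between these values. In listed TPM Mdh2 exceeded Mdh1 by 25.7 to 84.1 times, depending on the library. Whether the listed values hold the full level of Mdh1 was not tested.

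The carnitine shuttle moves long-chain acyl groups into the mitochondrion, and 0 of its 3 members were called. Cpt1a, the outer membrane acyltransferase that limits the rate of entry, was at 44.1, 44.8 and 45.2 TPM in wild-type libraries, 45.2, 43.5 and 43.9 TPM in Ndufa4l3-miR147 knockout libraries, and 42.4, 43.7 and 36.9 TPM in Ndufa4 knockout libraries. It was lower than wild type in each Ndufa4 knockout library (difference -0.13 ± 0.07, limma adjusted p = 0.280), with replicate 3 the lowest (-0.05 ± 0.04 without it), and overlapped with wild type in the Ndufa4l3-miR147 knockout (-0.02 ± 0.07). Slc25a20, the acylcarnitine carrier of the inner membrane, was at 26.6, 26.5 and 26.7 TPM in wild-type libraries, 31.5, 27.7 and 27.7 TPM in Ndufa4l3-miR147 knockout libraries, and 27.4, 27.9 and 29.3 TPM in Ndufa4 knockout libraries. Wild-type libraries lay close together and below both knockouts without overlap, by 0.12 ± 0.07 and 0.08 ± 0.07 (limma adjusted p = 0.76 and 0.48), and neither passed.

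The acyl-CoA dehydrogenases carry out the first oxidation of each round, each for its own range of chain lengths. Acadvl, for very long chains, was at 88.0, 80.2 and 80.9 TPM in wild-type libraries, 83.2, 74.4 and 77.1 TPM in Ndufa4l3-miR147 knockout libraries, and 69.5, 84.4 and 68.3 TPM in Ndufa4 knockout libraries. It overlapped between all genotypes, with differences from wild type of -0.09 ± 0.09 and -0.17 ± 0.09. Acads, for short chains, was at 21.6, 22.3 and 25.9 TPM in wild-type libraries, 23.6, 21.1 and 22.4 TPM in Ndufa4l3-miR147 knockout libraries, and 19.6, 19.6 and 19.6 TPM in Ndufa4 knockout libraries. The Ndufa4 knockout lay below both other genotypes without overlap and its 3 libraries were nearly equal, but the difference from wild type of -0.23 ± 0.08 did not pass (limma adjusted p = 0.109). Acadl, for long chains, was at 82.9 ± 1.07 TPM in wild type and 76.8 ± 2.41 TPM in the Ndufa4 knockout (SD, n = 3), with a difference of -0.11 ± 0.05 (limma adjusted p = 0.191). All 4 dehydrogenases kept had a difference below 0 in the Ndufa4 knockout, under each of the 3 other scalings too, and 0 of 4 were called by limma (2 had an unadjusted p under 0.05). Their median was -0.14 against -0.08 over all genes. After median-of-ratios scaling it was -0.07 against -0.01 over all genes. It was -0.09 against 0.004 after quantile normalisation and -0.08 against -0.002 with the length trend removed. Acadl and Acads were called with limma's array weights, a setting in which 27.4% of all genes were called and which rests mainly on Ndufa4 knockout replicate 2, at 89.2% of its genotype's weight.

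Of this group Acadm, for medium chains, was the only member whose upstream window held the half-site of oestrogen-related receptors, nuclear receptors known to act on oxidation genes. The half-site AAGGTCA was searched on both strands of the 250 bases before the RefSeq start and was found in 1 of 34 members with such a window (2.94%) and in 4.70% of 27025 genes. The Acadm window, chr3:153944644-153944893 on the minus strand (GRCm38.p6), is shown with the match in capitals (TGACCTT, the complement strand of AAGGTCA):
Acadm: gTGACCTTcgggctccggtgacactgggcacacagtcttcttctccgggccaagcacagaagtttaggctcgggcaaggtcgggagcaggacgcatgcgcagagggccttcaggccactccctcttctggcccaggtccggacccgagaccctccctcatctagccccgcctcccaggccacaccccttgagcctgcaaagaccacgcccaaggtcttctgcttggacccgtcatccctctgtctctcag
Acadm itself was at 58.9 ± 1.58 TPM in wild type, 59.3 ± 2.39 TPM in the Ndufa4l3-miR147 knockout and 55.9 ± 2.76 TPM in the Ndufa4 knockout (SD, n = 3). A match is a description of these letters and not of a bound site. Over the same windows a GC box (GGGCGG) was found in 24 of 34 members (70.6%) and in 35.4% of genes, and CCAAT in 17 (50.0%) and 37.5%. An ETS motif (CCGGAAG) was found in 3 members (8.82%) and 7.83% of genes, an NRF1 motif (GCGCA, any base, GCGC) in 3 (8.82%) and 4.23%, and a sterol element (TCACNCCAC) in 0 of 34 and 1.22%.

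Of the enzymes for hydration, the second dehydrogenation and thiolysis, Echs1 was the 1 of 4 members called. Echs1 encodes the short-chain enoyl-CoA hydratase, which adds water to the double bond made by the dehydrogenases. Echs1 (ENSMUSG00000025465.13, chr7:140105710-140116476, minus strand, GRCm38) was at 42.3, 42.1 and 40.4 TPM in wild-type libraries, 45.3, 42.6 and 45.5 TPM in Ndufa4l3-miR147 knockout libraries, and 52.5, 46.0 and 51.7 TPM in Ndufa4 knockout libraries. The 3 genotypes did not overlap, with wild type lowest and the Ndufa4 knockout highest. Against wild type Echs1 rose in the Ndufa4 knockout by 0.26 ± 0.06 (95% interval 0.11 to 0.41, limma adjusted p = 0.042). The call was kept in 9 of 20 alternative settings. It was lost without any 1 library of wild type, any 1 of the Ndufa4l3-miR147 knockout or replicate 1 of the Ndufa4 knockout (limma adjusted p = 0.0678 to 0.147), without the filter, without the intensity trend, in a fit to the 6 libraries compared and with a replicate block. It was kept without Ndufa4 knockout replicate 3 (0.24, limma adjusted p = 0.044), after scaling by the median of ratios (0.33, limma adjusted p = 0.032) and after removal of the length trend (0.29, limma adjusted p = 0.025). For the Ndufa4l3-miR147 knockout the difference was 0.09 ± 0.06 and between the knockouts -0.17 ± 0.06, and limma called neither.

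The upstream stretch of Echs1 is shown as that of the 1 member that rose. The gene model of Paox, a polyamine oxidase on the opposite strand, overlaps it, and the longest stretch without annotated exons is chr7:140116477-140116671 on the minus strand (GRCm38.p6, 195 bases), with a GC box in capitals:
Echs1: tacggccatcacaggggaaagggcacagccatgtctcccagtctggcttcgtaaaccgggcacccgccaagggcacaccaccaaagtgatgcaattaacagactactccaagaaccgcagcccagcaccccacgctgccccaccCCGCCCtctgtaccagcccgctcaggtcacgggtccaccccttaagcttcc
Paox, named after its values were seen, was at 12.4, 14.0 and 12.5 TPM in wild-type libraries, 11.4, 14.3 and 12.9 TPM in Ndufa4l3-miR147 knockout libraries, and 12.5, 13.6 and 14.1 TPM in Ndufa4 knockout libraries. These libraries overlapped throughout, with 0.04 ± 0.10 in the Ndufa4 knockout (limma adjusted p = 0.809). The authors' counting is not stated to use strand, so reads of overlapping genes may be shared.

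Hadha and Hadhb encode the alpha and beta subunits of the trifunctional protein, which carries out the remaining steps for long chains. They lie head to head on chromosome 5, with 85 bases between their GENCODE M21 starts and 272 between the RefSeq starts used for the upstream windows. The 85 bases are chr5:30155163-30155247 (GRCm38.p6, plus strand, GC boxes in capitals):
Hadha-Hadhb: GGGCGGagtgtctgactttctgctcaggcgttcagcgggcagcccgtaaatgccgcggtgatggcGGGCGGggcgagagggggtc
Hadhb, the most abundant member of this group, was at 82.0, 79.5 and 78.3 TPM in wild-type libraries, 77.4, 77.4 and 73.7 TPM in Ndufa4l3-miR147 knockout libraries, and 96.0, 76.6 and 81.6 TPM in Ndufa4 knockout libraries. The Ndufa4l3-miR147 knockout was lower than wild type without overlap, the highest value was that of Ndufa4 knockout replicate 1, and the differences from wild type were -0.07 ± 0.08 and 0.08 ± 0.08 (limma adjusted p = 0.991 and 0.561). Hadha was at 76.6, 76.7 and 79.4 TPM in wild-type libraries, 80.4, 78.5 and 73.9 TPM in Ndufa4l3-miR147 knockout libraries, and 73.1, 77.2 and 80.3 TPM in Ndufa4 knockout libraries. All genotypes overlapped in it, and the ratio of Hadha to Hadhb lay between 0.762 and 1.04.

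The electron transfer flavoprotein takes electrons from the acyl-CoA dehydrogenases, and Etfdh passes them to ubiquinone; 0 of these 3 members were called. Etfa, the alpha subunit, was at 107, 112 and 110.2 TPM in wild-type libraries, 107, 105 and 107 TPM in Ndufa4l3-miR147 knockout libraries, and 108, 105 and 100.3 TPM in Ndufa4 knockout libraries. It differed from wild type by -0.04 ± 0.05 and -0.07 ± 0.05. Etfb, the beta subunit, was at 67.4, 68.5 and 74.6 TPM in wild-type libraries, 70.2, 70.9 and 81.1 TPM in Ndufa4l3-miR147 knockout libraries, and 73.0, 78.3 and 87.4 TPM in Ndufa4 knockout libraries. Its difference of 0.18 ± 0.08 in the Ndufa4 knockout was among the 3 largest positive differences of the set but overlapped with wild type and did not pass (limma adjusted p = 0.223). Without replicate 3, the highest library, it was 0.11 ± 0.07. The ratio of Etfa to Etfb ran from 1.15 to 1.64 and was lowest in the library that stood apart.

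The other 12 members kept, among them Acadl and Acadm, had mean levels from 11.9 TPM (Cpt2) to 111 TPM (Idh3b), and none was called by limma in any comparison. They were Pdha1 and Dld of the pyruvate dehydrogenase complex, the cytosolic aconitase Aco1, the isocitrate dehydrogenase subunits Idh3b and Idh3g, Dlst, Sucla2, Cpt2, Acadl, Acadm, Hadh and Etfdh. Their differences ran from -0.12 (Cpt2) to 0.04 (Pdha1) in the Ndufa4l3-miR147 knockout against wild type, where Pdha1 and Aco1 did not overlap. In the Ndufa4 knockout against wild type they ran from -0.16 (Aco1) to 0.10 (Idh3b), and Acadl did not overlap. Between the knockouts they ran from -0.14 (Idh3b) to 0.12 (Sucla2), and Idh3b, Sucla2 and Etfdh did not overlap.

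A wider list of 103 genes of these pathways, drawn up with earlier results known, gave the surroundings of the set. Of these 93 were kept, and Pdk4, Ogdhl, Me3, Cpt1c, Acacb, Eci1, Ehhadh, Acaa1b, Ppara and Ppargc1a were not. Against wild type 0 rose and 1 fell in the Ndufa4l3-miR147 knockout, or 1.08% where 0.431% of all genes were called (0.243% higher, 0.189% lower). For the Ndufa4 knockout 2 rose and 8 fell, or 10.8% where 8.59% of all genes were called. Between the knockouts 1 was higher in the Ndufa4l3-miR147 knockout, as 2.2% of all genes were, and 0 were lower, as 1.04% were. Without wild-type replicate 1, 2 or 3 the count in the Ndufa4 knockout was 1, 2 and 2 of 93, where 2.39%, 2.39% and 2.61% of all genes were called. Calls over all genes there fell from 956 to 266, 266 and 290, so losses without a wild-type library were not particular to this list. Without Ndufa4 knockout replicate 3 the count was 17 of 93, where 14.25% of all genes were called.

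Peroxisomal beta-oxidation, which shortens very long and branched chains, held 3 of the 8 genes that fell in the Ndufa4 knockout, out of 9 kept (33.3%, where 5.76% of all genes were called lower). Without wild-type replicate 1, 2 or 3 this was 1 of 9, Acaa1a, where 168, 175 and 191 of 11133 genes were called lower, against 641 with all libraries. Acaa1a, the peroxisomal thiolase, was at 124, 114 and 117 TPM in wild-type libraries, 94.6, 94.0 and 92.7 TPM in Ndufa4l3-miR147 knockout libraries, and 91.3, 90.5 and 97.5 TPM in Ndufa4 knockout libraries. Both knockouts lay below wild type without overlap and at about the same level. Acaa1a fell by 0.33 ± 0.05 in the Ndufa4l3-miR147 knockout (limma adjusted p = 0.034) and by 0.34 ± 0.05 in the Ndufa4 knockout (limma adjusted p = 0.0068). The second call was kept in all 20 alternative settings. The first was kept in 9, and was lost when any wild-type or Ndufa4l3-miR147 knockout library was left out, or Ndufa4 knockout replicate 2 (limma adjusted p = 0.054 to 0.217). It was also lost after median-of-ratios scaling and quantile normalisation, without the intensity trend and with a replicate block.

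Acox3, an oxidase for branched acyl-CoA, was at 73.1, 76.3 and 76.3 TPM in wild-type libraries, 71.3, 70.9 and 70.2 TPM in Ndufa4l3-miR147 knockout libraries, and 55.8, 64.9 and 56.1 TPM in Ndufa4 knockout libraries. The Ndufa4 knockout was lowest without overlap, and Acox3 fell there by 0.35 ± 0.06 (limma adjusted p = 0.014). The difference was -0.09 ± 0.06 in the Ndufa4l3-miR147 knockout, and the direct difference between the knockouts, 0.26 ± 0.06, did not pass (limma adjusted p = 0.064). Hsd17b4, the bifunctional protein with hydratase and dehydrogenase activity, was at 71.9, 69.5 and 71.2 TPM in wild-type libraries, 65.5, 60.8 and 61.5 TPM in Ndufa4l3-miR147 knockout libraries, and 59.5, 61.4 and 57.8 TPM in Ndufa4 knockout libraries. This gene, picked out once its values had been seen, fell by 0.25 ± 0.05 in the Ndufa4 knockout (limma adjusted p = 0.022), and in the Ndufa4l3-miR147 knockout the difference was -0.18 ± 0.05 (limma adjusted p = 0.308). Without any 1 wild-type library both Acox3 and Hsd17b4 lost their call (limma adjusted p = 0.0516 to 0.0985). Both also lost it in a fit to the 6 libraries compared, and Hsd17b4 after median-of-ratios scaling and with the length trend removed. Of the 9 peroxisomal genes kept, 7 lay below wild type without overlap in the Ndufa4 knockout, where 21.7% of all genes did, and 6 in the Ndufa4l3-miR147 knockout, where 12.0% did. Their medians were -0.25 and -0.06 against -0.08 and 0.00 over all genes. The first was -0.18 after median-of-ratios scaling, against -0.01 over all genes, and -0.16 with the length trend removed, against -0.002. The macrophage marker Lyz2 and the dendritic cell marker Clec9a were also highest in the Ndufa4 knockout, while the macrophage markers Cd14 and Mertk were lowest there, and their part in these differences was not tested.

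**Figure D4:**
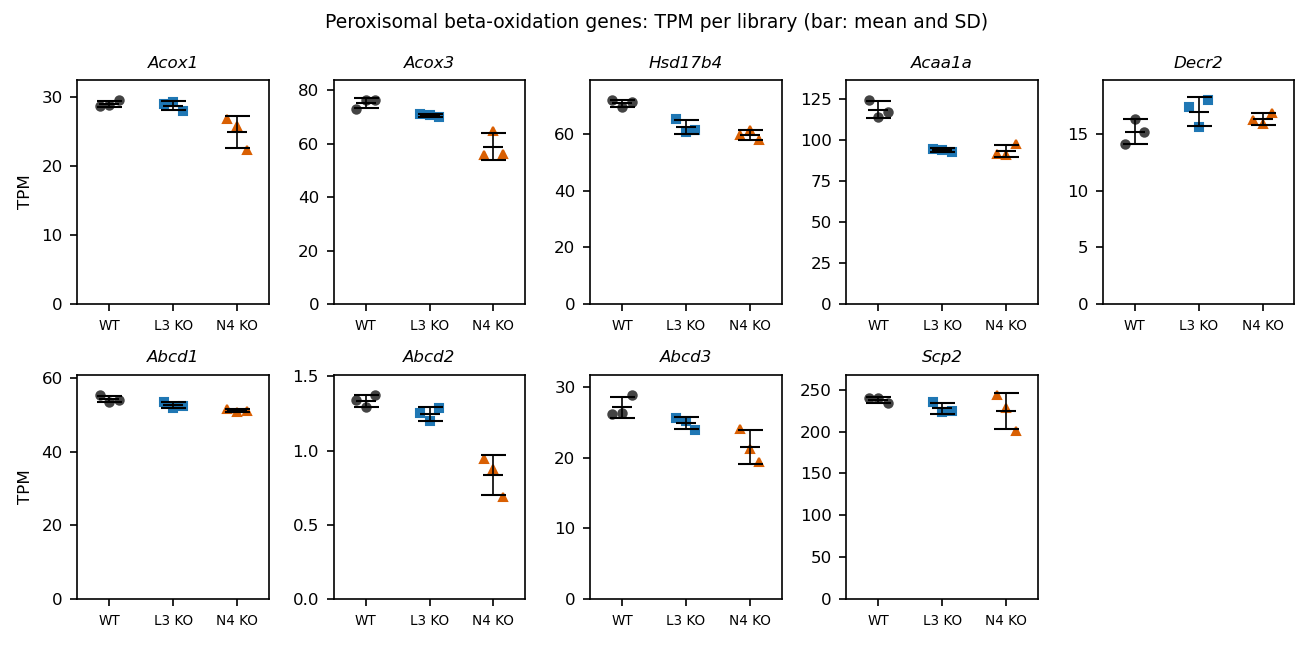
TPM in each library for the 9 peroxisomal beta-oxidation genes kept, on axes that start at 0, with the mean and SD of 3 libraries per genotype as bars. WT is wild type, L3 KO the Ndufa4l3-miR147 knockout and N4 KO the Ndufa4 knockout. Acaa1a is lower in both knockouts, Acox3 mainly in the Ndufa4 knockout, and Decr2 and Scp2 overlap with wild type there.

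Of the long-chain acyl-CoA synthetases kept, which activate fatty acids, Acsl1 rose and Acsl3 fell in the Ndufa4 knockout, and Acsl4 and Acsl5 were not called by limma (-0.07 ± 0.20 and -0.03 ± 0.05, adjusted p = 0.844 and 0.78). Acsl4 was 0.20 ± 0.09 without Ndufa4 knockout replicate 3 (limma adjusted p = 0.156). Acsl1, a long-chain acyl-CoA synthetase, was at 66.3, 65.3 and 69.7 TPM in wild-type libraries, 76.9, 76.7 and 78.0 TPM in Ndufa4l3-miR147 knockout libraries, and 116, 103 and 83.7 TPM in Ndufa4 knockout libraries. The 3 genotypes did not overlap, with the Ndufa4 knockout highest and widely spread and replicate 3 nearest to the others. Acsl1 rose there by 0.57 ± 0.10 (limma adjusted p = 0.0125), which was lost without wild-type replicate 1 or 2 (limma adjusted p of 0.0574 to 0.0607). Acsl3, another long-chain synthetase, was at 15.6, 15.6 and 15.8 TPM in wild-type libraries, 13.8, 11.7 and 12.0 TPM in Ndufa4l3-miR147 knockout libraries, and 12.3, 11.1 and 10.2 TPM in Ndufa4 knockout libraries. It fell by 0.45 ± 0.09 (limma adjusted p = 0.018), with both knockouts below wild type without overlap. The call was lost without any 1 wild-type library (limma adjusted p = 0.0728 to 0.0752). Acsl1 and Acsl3 both also lost their call in a fit to the 6 libraries compared. In the Ndufa4l3-miR147 knockout the differences were 0.20 ± 0.10 for Acsl1 and -0.30 ± 0.09 for Acsl3, and neither was called by limma (adjusted p = 0.675 and 0.316).

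Both carnitine acyltransferases of shorter chains also fell in the Ndufa4 knockout and were named after their values were seen. Crat, carnitine acetyltransferase, was at 60.0, 51.2 and 60.1 TPM in wild-type libraries, 48.8, 53.5 and 52.1 TPM in Ndufa4l3-miR147 knockout libraries, and 45.9, 47.2 and 47.0 TPM in Ndufa4 knockout libraries. It fell by 0.28 ± 0.07 (limma adjusted p = 0.045). Crot, the peroxisomal octanoyltransferase, was at 23.7, 21.4 and 23.2 TPM in wild-type libraries, 22.9, 20.9 and 21.4 TPM in Ndufa4l3-miR147 knockout libraries, and 18.3, 18.3 and 13.9 TPM in Ndufa4 knockout libraries. It fell by 0.42 ± 0.11 (limma adjusted p = 0.042), with replicate 3 the lowest. Crat kept its call in 7 of 20 and Crot in 10 of 20 alternative settings. Crat lost it without wild-type replicate 1 or 3, without any 1 library of the Ndufa4l3-miR147 knockout, and without replicate 1 or 2 of the Ndufa4 knockout. Crot lost it when any wild-type or Ndufa4l3-miR147 knockout library was left out. The limma adjusted p of these lost calls ran from 0.0649 to 0.162. Both genes also lost their call without the filter, without the intensity trend, in a fit to the 6 libraries compared and with a replicate block. Crat lost it after median-of-ratios scaling and quantile normalisation too, while Crot kept it under both.

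Pdp2, a phosphatase that activates pyruvate dehydrogenase, was at 6.28, 6.48 and 6.45 TPM in wild-type libraries, 5.27, 4.92 and 5.38 TPM in Ndufa4l3-miR147 knockout libraries, and 4.38, 4.49 and 3.57 TPM in Ndufa4 knockout libraries. The 3 genotypes did not overlap, in the same order as Idh1, and Pdp2 fell by 0.53 ± 0.10 in the Ndufa4 knockout (limma adjusted p = 0.016). This call was lost without any 1 wild-type library (limma adjusted p = 0.0622 to 0.0687), and in a fit to the 6 libraries compared. Hibadh, a dehydrogenase of valine breakdown, was at 34.1, 35.5 and 36.2 TPM in wild-type libraries, 38.7, 39.0 and 38.2 TPM in Ndufa4l3-miR147 knockout libraries, and 42.3, 40.9 and 40.3 TPM in Ndufa4 knockout libraries. It was highest in the Ndufa4 knockout without overlap and rose there by 0.22 ± 0.05 (limma adjusted p = 0.036). This call was lost when any library but replicate 3 of the Ndufa4 knockout was left out (limma adjusted p = 0.0563 to 0.143). It was also lost in a fit to the 6 libraries compared and with a replicate block.

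Acod1, listed as Irg1, makes itaconate from the cycle intermediate cis-aconitate and was the 1 gene of the wider list called between the knockouts. Acod1 was at 144, 128 and 143 TPM in wild-type libraries, 138, 137 and 136 TPM in Ndufa4l3-miR147 knockout libraries, and 121, 96.5 and 100.3 TPM in Ndufa4 knockout libraries. The Ndufa4 knockout lay below both other genotypes without overlap, and wild type and the Ndufa4l3-miR147 knockout overlapped. Acod1 was higher in the Ndufa4l3-miR147 knockout than in the Ndufa4 knockout by 0.38 ± 0.08 (limma adjusted p = 0.047), where 3.24% of all genes were called, and fell by 0.39 ± 0.08 in the Ndufa4 knockout against wild type (limma adjusted p = 0.025). With the length trend removed Acod1 was not fitted, as its listed symbol had no transcript length. The difference between the knockouts was kept in 5 of the other 19 alternative settings. It was lost when any library but replicate 1 of the Ndufa4 knockout was left out (limma adjusted p = 0.0597 to 0.158). It was also lost once libraries were scaled by the median of ratios (0.31 ± 0.08, limma adjusted p = 0.0885) or normalised by quantiles (0.34 ± 0.08, limma adjusted p = 0.0602), and under both of these the 1 gene called was Acsl1 in its place, with differences of -0.44 ± 0.08 and -0.42 ± 0.09 (limma adjusted p = 0.0267 and 0.0347, against 0.0924 unscaled). The fall against wild type was lost without any 1 wild-type library or Ndufa4 knockout replicate 2 (limma adjusted p = 0.0514 to 0.102). Both Acod1 calls were also lost without the filter and in a fit to the 6 libraries compared. The call between the knockouts was lost without the intensity trend and with a replicate block too.

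**Figure D5:**
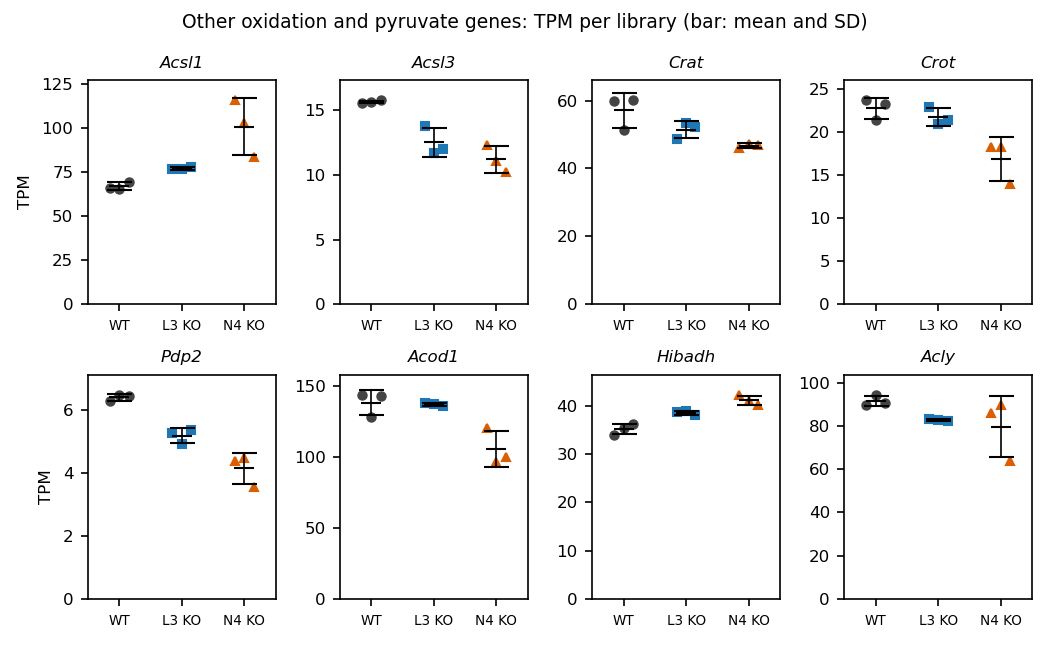
TPM in each library for 8 genes of the wider list, on axes that start at 0, with the mean and SD of 3 libraries per genotype as bars. WT is wild type, L3 KO the Ndufa4l3-miR147 knockout and N4 KO the Ndufa4 knockout. Acsl1 is highest and Acod1, Crot and Pdp2 are lowest in the Ndufa4 knockout, while Acly, which was not called, is spread there.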

How the data were processed

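RNA of 9 libraries from interferon-gamma treated mouse bone marrow-derived macrophages was analysed from 1 table of TPM that the authors deposited, which held 29763 named entries. Each library summed to 913474 to 921678 TPM over these, and 8730 entries were at 0 in every library. The tools named per the submitters' processing notes were kallisto, DESeq2 and edgeR, and the builds mm10 and GRCm39, without versions or roles. The annotation release is not given in the sources used here. Because the TPM of a library share a fixed total, a gain in some genes lowers all others. TPM keep no read depth, so no counting intervals are given, and their 3 libraries per genotype limit the precision.

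Values were taken as log2(TPM + 1), on which changes of low genes are understated, and a gene was kept if 3 or more libraries reached 1 TPM (11133 genes). All 9 libraries were fitted with limma 3.58.1 in R 4.3.3, with 1 mean per genotype, an intensity trend and two-sided tests. P-values were adjusted by Benjamini-Hochberg over all genes, separately in 3 comparisons. Groups came from the labels, and no batch or date is given in the labels used here. On simulated data for the Ndufa4 knockout against wild type (11133 genes, 200 changed) the fit recovered 51.5% of genes changed by 0.5 on the log2 scale and 95.5% of those changed by 1, and 2.83% and 4.02% of its calls were false. Simulated noise was independent between genes and libraries, with the same spread in each genotype, and only more abundant genes were changed. Such data hold no library that stands apart, so these rates need not hold for the calls given here.

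The members and all gene lists were chosen with earlier results of these data known. Values in every library are given for each member called, for the 3 largest rises and falls in each comparison and for the most abundant member in wild type of each of 8 role groups, which came to 19 members. Hadha and Idh2 were added as partners. Of the wider list up to 4 called genes per direction and comparison were named by smallest adjusted p. The 20 alternatives were 2 other pseudocounts, 2 other filters, 2 other scalings, no intensity trend, array weights, the 6 libraries compared alone, a replicate block, leaving out each of 9 libraries, and removal of a length trend, which was chosen after seeing the data. Gene positions are from GENCODE M21 (GRCm38) and matched 35 of 35 members. Upstream sequences are credited to RefSeq (GRCm38.p6), where 34 of 35 members had a window, and printed stretches leave out every annotated exon. Positions describe the reference and not the transcript set the authors used.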

Additional observations from a re-analysis of the deposited data

How the results depend on the processing

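In the Ndufa4l3-miR147 knockout against wild type, 0 members were called, but 1 (Idh1) with array weights and in the fit to the 6 libraries compared, and 0 to 1 when 1 library was left out. Of the wider list 1 gene was called there, but 0 after median-of-ratios scaling, quantile normalisation, without the intensity trend or with the replicate block, 7 with array weights, 3 with the 6 libraries alone and 0 to 2 with 1 library left out. The median member difference, -0.03, stayed between -0.05 and -0.01 in all 20 alternatives.

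In the Ndufa4 knockout against wild type, 2 members were called. This became 1 without the filter, without the intensity trend, with the 6 libraries alone and with the replicate block, 6 with array weights and 1 to 3 with 1 library left out. The wider list gave 10 calls, but 29 with array weights, 1 with the 6 libraries alone and 1 to 17 with 1 library left out. The median member difference, -0.07, was 0.0011 after median-of-ratios scaling, -0.0018 after quantile normalisation, -0.023 with array weights and 0.015 with the length trend removed, so the sign of this median rests on the scaling. Over all genes the median was -0.08, and -0.012, 0.0038, -0.029 and -0.0017 in these settings in turn. With 1 library left out the member median lay between -0.091 and -0.036.

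Between the knockouts 0 members were called, but 1 (Slc25a1) with array weights, and 0 to 1 with 1 library left out. The wider list gave 1 call (Acod1, but Acsl1 after median-of-ratios scaling and quantile normalisation), but 12 with array weights and 0 to 3 with 1 library left out. It gave 0 without the filter, without the intensity trend, with the 6 libraries alone and with the replicate block. With the length trend removed it also gave 0, but Acod1 was not fitted there, as its listed symbol had no transcript length. The median member difference, 0.03, became -0.035 after median-of-ratios scaling, -0.022 after quantile normalisation and -0.034 with the length trend removed, and lay between -0.012 and 0.048 with 1 library left out. Over all genes the median was 0.07, and 0.010, -0.0089 and 0.00021 under these scalings in turn. The causes of these shifts were not tested.

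Over all genes the 3 comparisons gave 48, 956 and 361 calls, against 538, 3045 and 1726 with array weights, 306, 238 and 64 with the 6 libraries alone, 24, 661 and 162 with the replicate block, and 30 in the first without the intensity trend. Leaving out 1 library gave 13 to 198, 266 to 1586 and 82 to 740. Calls between the knockouts split into 245 higher and 116 lower, and into 149 higher and 154 lower after median-of-ratios scaling. Deviations of same-numbered libraries correlated at -0.138 to 0.0456, -0.132 to -0.0427 and -0.0164 to 0.179 in the 3 comparisons. These deviations are taken from a mean of only 3 libraries, so such correlations cannot settle whether the replicate numbers pair the libraries.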
